A study of Mus musculus with 6 samples.

Results

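The miRNAs described here are those of the families miR-297, miR-466, miR-467 and miR-669, most of which are encoded in a large intronic cluster of the mouse gene Sfmbt2. Members were all mouse probes of the panel whose name starts with one of these family names, with a probe that reads several miRNAs counted once. This gave 33 of 566 mouse miRNA probes. The samples were splenocytes, the cells released from the spleen, of NZB/WF1 females, hybrid mice in which a lupus-like autoimmune disease arises without treatment. The mice received an implant at 6 to 7 weeks of age and were killed after 9 weeks of treatment. The implant held the natural estrogen 17-beta estradiol (E2 group), the synthetic 17alpha-ethinyl estradiol (EE group), which carries an added ethinyl group, or was empty (placebo group), with 2 samples in each of the 3 groups. The sources used here do not give the implant doses. Nothing in the labels says that replicates were different animals, so the p-values below measure only the spread between these samples. miRNAs were measured with the nCounter mouse miRNA assay, version 1.5, which counts colour-coded barcodes of single molecules without amplification, and the deposited values are called normalized counts below.

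A miRNA guides a silencing complex to mRNAs mainly through its seed, bases 2 to 8 from its 5′ end. Sfmbt2 encodes a Polycomb group protein and is imprinted, being expressed from the paternal allele in early embryonic and placental tissue. Its intronic cluster is a rodent-specific array of tandem repeats that yields many near-identical miRNAs, best known from embryonic stem cells and the placenta.

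The family name did not place every member in Sfmbt2. Matched to the RefSeq mouse gene table (GRCm38.p6), the member probes named 64 different miRNA genes, of which 56 lay inside the span of Sfmbt2 and 8 outside it. All matched genes lay inside for 25 probes, 3 probes read genes of both kinds, and 5 probes read only a gene outside, namely those for miR-466i, miR-466j, miR-466k, miR-467f and miR-467g. The gene of miR-467f overlapped the span of Fxr2, which encodes an RNA-binding protein. Some probes stand for many gene copies, with 12 copies matched for miR-669a and 10 for miR-467a, all inside Sfmbt2. The component miR-466a, present on 2 combined probes, matched no gene name, and these probes were placed by their other component. Because the genes are near-identical repeats, a probe may also read sequences of its relatives, and this was not tested.

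Sequences were found in the RefSeq miRNA table (GRCm38.p6) for 6 of the 39 miRNA names on the member probes. They are shown, 5′ to 3′ with the seed in capitals, because they include miR-467f, on which much of what follows turns. All 6 come from genes outside Sfmbt2, and no sequence of a member encoded inside Sfmbt2 is shown, so they do not describe the cluster itself.
miR-467f: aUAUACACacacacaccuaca
miR-467g: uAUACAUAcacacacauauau
miR-466i: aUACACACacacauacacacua
miR-466k: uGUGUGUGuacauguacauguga
miR-466j: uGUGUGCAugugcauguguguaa
miR-467h: aUAAGUGUgugcauguauaugu
The first lies at chr11:69635419-69635439 on the minus strand, miR-467g at chr5:34732872-34732892 on the minus strand, miR-466i (listed as miR-466i-3p) at chr13:17747552-17747573 on the plus strand, miR-466k at chr3:85467396-85467418 on the plus strand, miR-466j at chr10:60960802-60960824 on the plus strand and miR-467h at chr9:115381898-115381919 on the plus strand. These 6 miRNAs from outside Sfmbt2 had 6 different seeds. Of these, 3 (miR-467f, miR-467g and miR-466i) carried the repeat ACACACAC, and miR-466k carried UGUGUGUG, read on the RNA strand. Among 1679 mature miRNAs in the table, 11 carried either motif (0.655%).

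Most of the member probes gave values no higher than the negative controls, probes with no target in the sample. A detection floor of 53.3 normalized counts was set at the mean plus 2 SD of the 8 negative control probes over the 6 samples (mean 22.5, SD 15.4). Only 3 members had a mean over all samples above it, namely miR-467f at 93.2, the combined probe miR-466a-3p+miR-466b-3-3p at 73.3 (the combined miR-466 probe below) and miR-669a at 60.8. Just under it, miR-467b had a mean of 45.5 and was above the floor in both placebo samples. The other 29 members were under the floor in every sample, with means from 3.50 to 39.5. The negative controls themselves ran from 4 to 59, and the highest of them, NEG_C, was above the floor in both EE samples (59 and 56) and in placebo sample 1 (58).

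**Figure D1:**
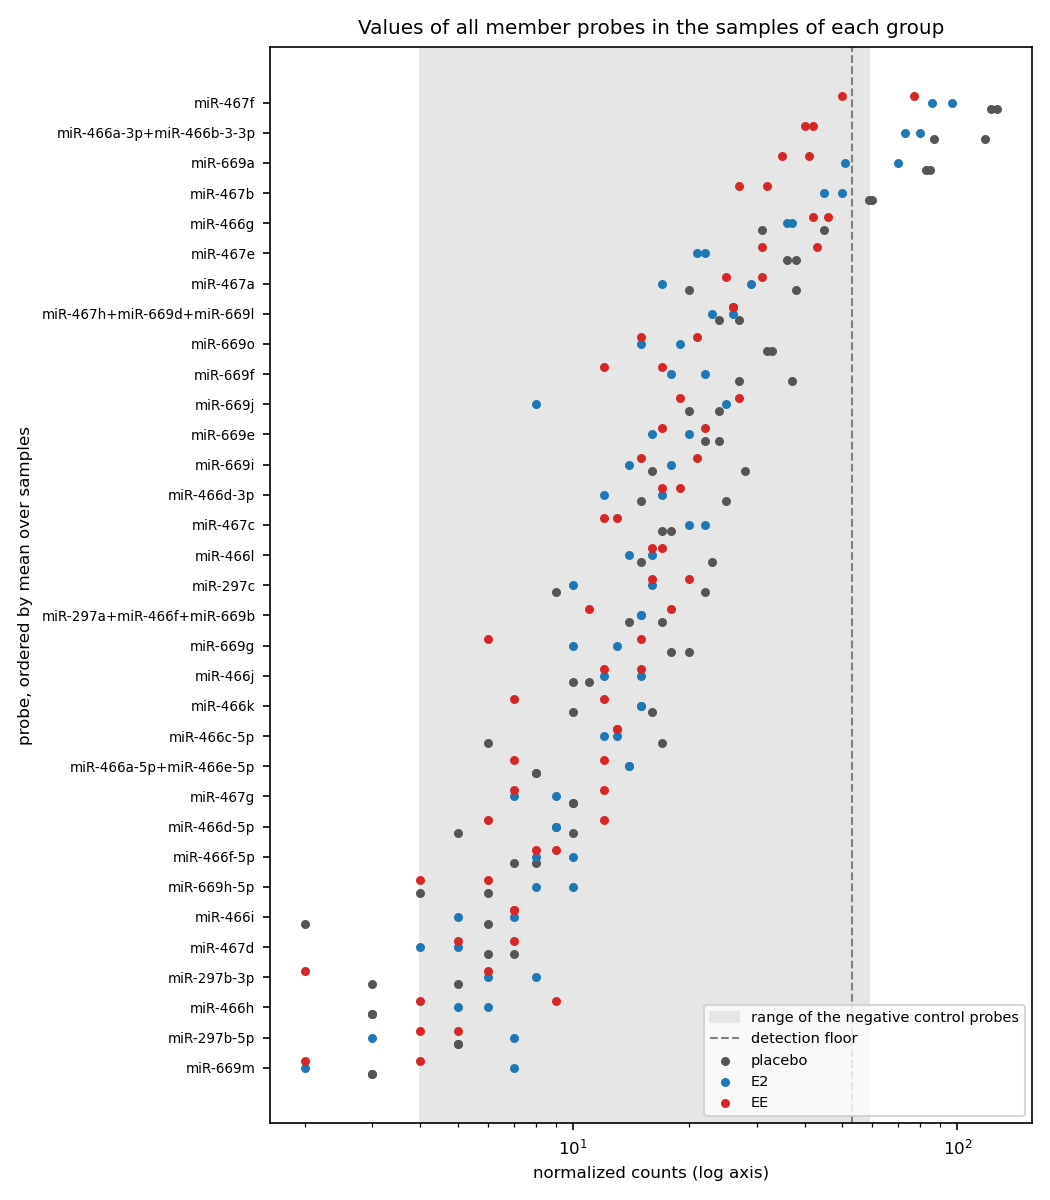
Normalized counts (log axis) of the 33 member probes, ordered by their mean, with a point for each of the 6 samples coloured by group, the range of the negative control probes shaded and the detection floor of 53.3 dashed. Only miR-467f, the combined miR-466 probe, miR-669a and miR-467b have points to the right of the floor, and the placebo points of these probes lie farthest to the right.

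By family, 1 of 12 miR-466 probes, 1 of 7 miR-467 probes and 1 of 9 miR-669 probes had a mean above the floor, against none of 3 miR-297 probes and none of 2 probes combined over families. By place, these were 2 of the 25 probes with all genes inside Sfmbt2 and 1 of the 5 with a gene outside. The number of members above the floor was 4 in each placebo sample, 2 and 3 with E2, and 1 and 0 with EE. Negative controls did not follow this order: their mean was 27.3 and 19.8 in the placebo samples, 18.5 and 20.5 with E2 and 25.3 and 23.8 with EE. Summed over all 33 members, the level in normalized counts was 872 and 801 with placebo, 644 and 719 with E2 and 633 and 564 with EE. The placebo samples lay above all estrogen samples, and the lowest E2 sample (644) was close to the highest EE sample (633). The summed mean was 0.815 of placebo with E2 and 0.715 of placebo with EE. The sum contains the background of the probes. Each sample's negative control mean was therefore subtracted, and values under 1 were set to 1. The EE sum was then 0.383 of placebo and the E2 sum 0.716. In each sample only 8 to 13 of the 33 members lay above the control mean. These ratios thus rest on few probes and do not describe the whole cluster.

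The same sum as a share of all mouse miRNA counts hardly separated the groups. It was 0.577% and 0.576% in the placebo samples, 0.498% and 0.595% with E2 and 0.558% and 0.505% with EE. The total of mouse miRNA counts was itself lower with the estrogens, at 151249 and 139137 with placebo, 129374 and 120812 with E2 and 113515 and 111616 with EE. These totals include 3 abundant lymphoid miRNAs, which summed to 41000 to 50761 with placebo, 26756 to 28589 with E2 and 17116 to 18297 with EE. The log2 difference of EE from placebo was below 0 for 36.6% of all 566 mouse probes, with a median of 0.15. Most of these probes were under the floor. Over the 95 miRNAs with a mean above the floor the median was -0.11, against -0.10 over the members. Whether the members fell more than other miRNAs was not tested. In bulk samples such as these, fewer cells that express a miRNA and less of it per cell cannot be told apart.

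The comparison of EE with placebo asked how the synthetic estrogen changed these miRNAs. The combined miR-466 probe, miR-669a and miR-467f all fell with EE, with group means 2.50, 2.21 and 1.96 times lower than with placebo. The combined miR-466 probe read 118 and 87 normalized counts with placebo and 42 and 40 with EE. Both EE values were far below both placebo values and under the floor. The placebo mean was 102.5 ± 21.9 and the EE mean 41.0 ± 1.41 (SD, n = 2 each).

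miR-669a, which in mouse cardiac progenitors is known to restrain the muscle regulator MyoD, read 85 and 83 normalized counts with placebo and 35 and 41 with EE. Again the groups did not overlap, and the EE values lay under the floor. The means were 84.0 ± 1.41 and 38.0 ± 4.24 (SD, n = 2 each).

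miR-467f, whose gene lies outside Sfmbt2, read 122 and 127 normalized counts with placebo and 77 and 50 with EE. The groups did not overlap, but the EE samples lay apart from each other on both sides of the floor. The means were 124.5 ± 3.54 and 63.5 ± 19.1 (SD, n = 2 each).

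**Figure D2:**
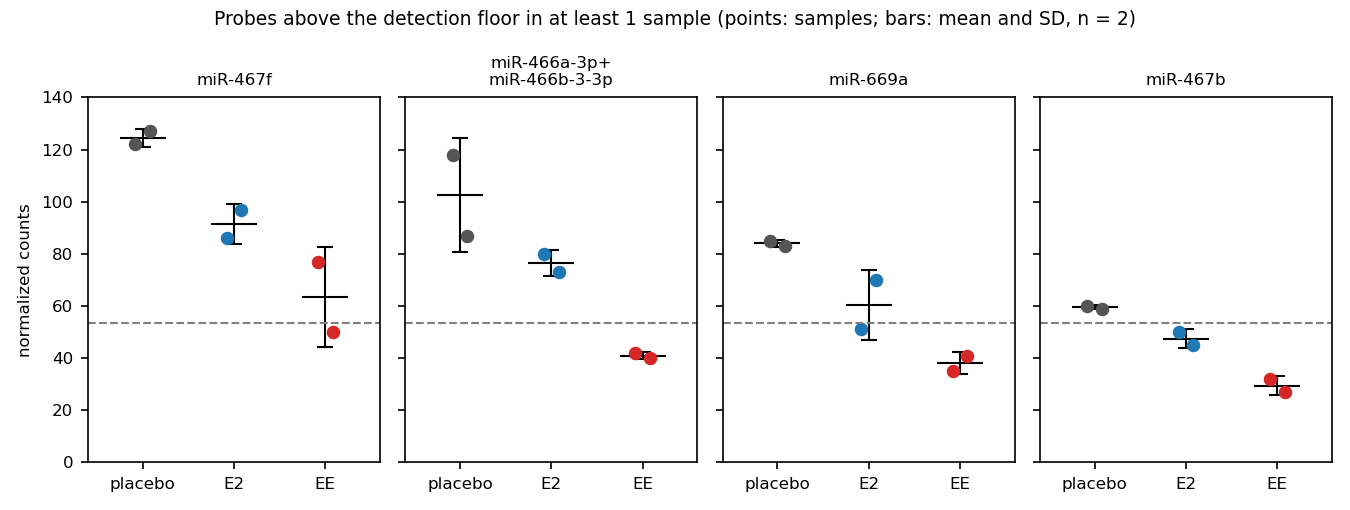
Normalized counts of the 4 probes that were above the detection floor (dashed, 53.3) in at least 1 sample, with a point per sample and bars for the mean and SD of each group (n = 2). In each panel both EE points lie below both E2 points, which lie below both placebo points.

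In limma's moderated test over 95 detected miRNAs, the log2 difference of EE from placebo was -1.29 ± 0.22 (SE) for the combined miR-466 probe, with an adjusted p of 0.00152. It was -1.13 ± 0.23 for miR-669a (adjusted p 0.00424) and -0.99 ± 0.23 for miR-467f (adjusted p 0.00916). These were 3 calls among 3 tested members, where 15.8% of all tested miRNAs were called lower with EE. That filter admits a miRNA by its mean, to which high placebo values contribute, so the count is given as a description. In a fit over all 566 mouse probes with no filter, 2 of the 33 members were called lower, the combined miR-466 probe (adjusted p 0.0174) and miR-669a (adjusted p 0.0395), against a background of 1.24% of probes, and miR-467f was not (adjusted p 0.0667). The call of miR-467f also ended without EE sample 2, at -0.69 with an adjusted p of 0.0816, and after rescaling by housekeeping mRNAs, at -0.89 with an adjusted p of 0.0706. With both EE values of the miR-466 and miR-669a probes under the floor, the size of their fall is uncertain. The placebo mean was 1.92 times the floor for the former and 1.58 times the floor for the latter. Subtracting the negative control mean made the log2 differences larger, at -2.18 for the miR-466 probe, -2.13 for miR-669a and -1.43 for miR-467f.

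miR-467b, known in mouse macrophages for its action on lipoprotein lipase, was high with placebo and lowest with EE. It read 60 and 59 normalized counts with placebo, 50 and 45 with E2, and 32 and 27 with EE. No groups overlapped, and only the placebo values were above the floor. Its log2 difference of EE from placebo was -0.99 ± 0.21 (SE) in the unfiltered limma fit, with an adjusted p of 0.0520.

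Over all 33 members the response to EE was mixed. Both EE samples lay below both placebo samples for 8 members (24.2%, against 11.1% of all 566 mouse probes), namely the combined miR-466 probe, miR-467b, miR-467c, miR-467f, miR-669a, miR-669f, miR-669g and miR-669o. They lay above for 3 (9.09%, against 19.8% of all probes), namely miR-466h, miR-466i and miR-466j, all of which stood between 2 and 15 normalized counts. The log2 difference was below 0 for 20 members (60.6%), against 36.6% of all mouse probes. The median was -0.10 over the members, 0.15 over all 566 probes and -0.11 over the 95 tested miRNAs. The differences of the members ranged from -1.29 to 0.82. At an unadjusted p under 0.05 in the unfiltered limma fit, 6 members were lower (18.2%, against 5.83% of all probes) and none higher (against 6.36%).

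Beside miR-669a, 3 other miR-669 members from genes inside Sfmbt2 had lower EE values, all under the floor. miR-669f read 27 and 37 normalized counts with placebo and 12 and 17 with EE, miR-669o read 32 and 33 against 15 and 21, and miR-669g read 20 and 18 against 6 and 15. Their values all lay within the range of the negative controls, and none passed in the unfiltered limma fit (adjusted p 0.138, 0.259 and 0.494). By family, the median log2 difference of EE from placebo was -0.24 over the 9 miR-669 probes and -0.11 over the 7 miR-467 probes, but 0.20 over the 12 miR-466 probes and -0.10 over the 3 miR-297 probes. Of the 12 miR-466 probes, 4 had a difference below 0. By place, the median was -0.10 over the 25 probes of Sfmbt2 alone and -0.11 over the 5 probes from outside it. Both classes spanned a wide range, from -1.29 to 0.82 inside and from -0.99 to 0.80 outside.

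**Figure D3:**
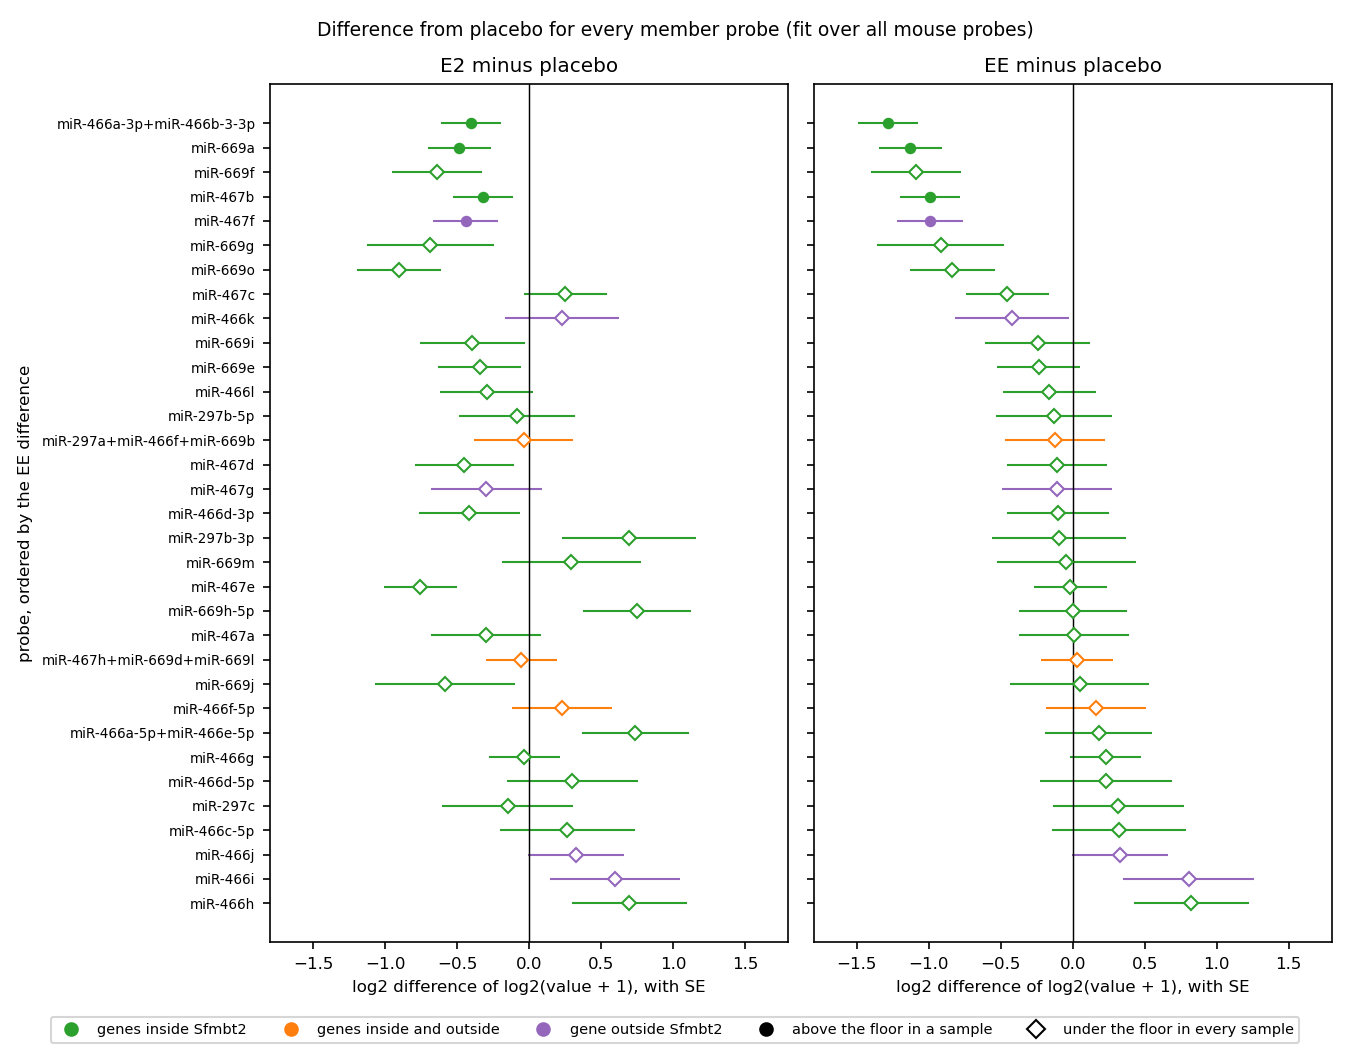
Log2 difference from placebo, with its SE, for each of the 33 member probes with E2 (left) and EE (right), from the fit over all mouse probes; filled circles were above the floor in at least 1 sample and colours give the place of the genes. With EE the 4 filled circles lie between -1.29 and -0.99, and most open diamonds lie within 0.5 of 0.

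The members were also divided by whether any sample lay above the floor. The placebo values decided this for miR-467b, so the contrast is partly built in and is a description. Over the 4 probes above the floor in some sample, the median log2 difference of EE from placebo was -1.06 and all 4 were below 0. Over the 29 others it was -0.047, with 16 below 0, but these included miR-669f at -1.09, miR-669g at -0.92 and miR-669o at -0.84. The 4 summed to 385 and 356 normalized counts with placebo, 267 and 285 with E2 and 186 and 158 with EE, and the EE mean was 0.464 of placebo. The 29 summed to 487 and 445 with placebo, 377 and 434 with E2 and 447 and 406 with EE, and the EE mean was 0.915 of placebo.

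**Figure D4:**
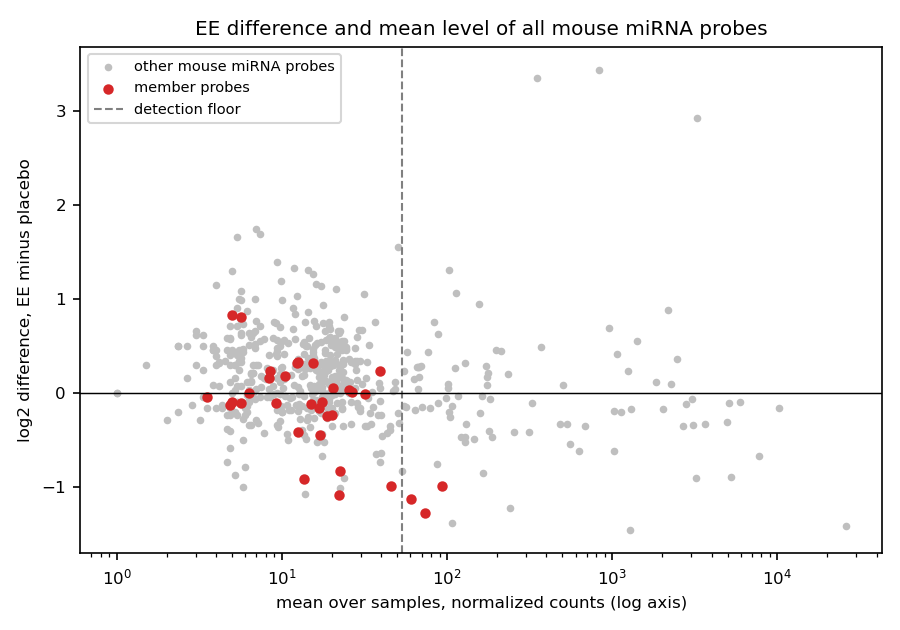
Log2 difference of EE from placebo (vertical) against the mean over the 6 samples in normalized counts (horizontal, log axis) for the 33 member probes (red) and the other mouse miRNA probes (grey), with the detection floor of 53.3 dashed. The 3 members to the right of the floor lie between -1.29 and -0.99, while members at low means scatter on both sides of 0.

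The comparison of E2 with placebo asked the same of the natural hormone. The combined miR-466 probe read 80 and 73 normalized counts with E2, against 118 and 87 with placebo. miR-669a read 51 and 70 against 85 and 83, and miR-467f read 86 and 97 against 122 and 127. In all 3 the E2 samples lay below the placebo samples without overlap, as they did for 18.0% of all 566 mouse probes, and E2 sample 1 of miR-669a was under the floor.

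None of the 3 passed limma's test over 95 miRNAs, where 6.32% were called lower with E2, and none had an unadjusted p under 0.05 (10.5% of the 95 did, on the lower side). The log2 differences were -0.40 ± 0.22 (SE) for the miR-466 probe (95% interval -0.89 to 0.088, adjusted p 0.227), -0.48 ± 0.23 for miR-669a (-1.003 to 0.034, adjusted p 0.221) and -0.44 ± 0.23 for miR-467f (-0.96 to 0.071, adjusted p 0.227). Each interval includes 0. In the unfiltered fit no member was called lower, as was the case for all mouse probes (0%), while 2 members had an unadjusted p under 0.05 on the lower side, miR-467e and miR-669o (6.06%, against 4.06% of all probes), and none on the higher side (against 5.83%).

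miR-467e, from a gene inside Sfmbt2, read 36 and 38 normalized counts with placebo, 21 and 22 with E2 and 43 and 31 with EE. It was thus low with E2 and overlapped with placebo under EE, all within the range of the negative controls. Its log2 difference of E2 from placebo was -0.76 ± 0.25 (SE, unfiltered limma adjusted p 0.312). For miR-669o, at 15 and 19 with E2, it was -0.90 ± 0.29 (adjusted p 0.312).

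Both E2 samples lay below both placebo samples for 11 members (33.3%, against 18.0% of all mouse probes) and above them for 6 (18.2%, against 17.1%). The log2 difference was below 0 for 21 members (63.6%, against 45.6%). Its median was -0.15 over the members, 0.042 over all 566 probes and -0.20 over the 95 tested miRNAs. The differences of the members ranged from -0.90 to 0.75. The E2 and EE comparisons used the same placebo samples, so the values stand side by side and their likeness is not counted as a result.

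The direct comparison of EE with E2 set the ethinylated against the natural estrogen after the same 9 weeks. The doses are not given, so they may not be matched. The combined miR-466 probe was lower with EE, at 42 and 40 normalized counts against 80 and 73, a log2 difference of -0.88 ± 0.22 (SE, limma adjusted p 0.0320, 95% interval -1.37 to -0.39). miR-669a (-0.64, interval -1.16 to -0.13, adjusted p 0.153) and miR-467f (-0.55, interval -1.06 to -0.036, adjusted p 0.213) did not pass, although their EE samples lay below their E2 samples and their unadjusted p-values were under 0.05. Across the 95 miRNAs, 4.21% were called lower with EE than with E2 and 9.47% had an unadjusted p under 0.05 on that side. Both EE values of the miR-466 probe were under the floor, so the size of its difference is uncertain. It was -1.72 with the negative control mean subtracted and -0.58 with rescaling by housekeeping mRNAs. The call of the miR-466 probe was lost in 10 of 21 alternatives, with adjusted p-values up to 0.388. Without E2 sample 1 it was 0.211, without E2 sample 2 0.144, without EE sample 1 0.0626 and without EE sample 2 0.121, so the call rested on having both samples of each group. In the unfiltered fit no member was called (0% of all probes).

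Over all members, both EE samples lay below both E2 samples for 9 (27.3%, against 12.7% of all mouse probes) and above them for 2 (6.06%, against 17.1%), miR-466g and miR-467e. The median log2 difference was 0 over the members, 0.091 over all 566 probes and 0.031 over the 95 tested miRNAs. The difference was below 0 for 16 members (48.5%, against 37.8% of all probes). At an unadjusted p under 0.05 in the unfiltered fit, 5 members were lower with EE than with E2 (15.2%, against 2.65%), the 4 probes above the floor in some sample and miR-467c, and miR-467e was higher (3.03%, against 3.89%). With no overlap of any groups, 5 members had placebo over E2 over EE, namely the combined miR-466 probe, miR-467b, miR-467f, miR-669a and miR-669f, as did 3.53% of all mouse probes. No member had the opposite order, which 2.83% of the probes had.

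Of the other members, few have a described role. miR-466l, which stabilises interleukin-10 mRNA in mouse macrophages, read 23 and 15 normalized counts with placebo, 16 and 14 with E2 and 17 and 16 with EE, without separation of the groups. miR-466h, which promotes apoptosis when nutrients run out in cultured hamster cells, read 3 and 3 with placebo, 5 and 6 with E2 and 9 and 4 with EE. These values are too near the lowest possible reading to rank. miR-466g was the highest of the members under the floor in every sample, at 31 and 45 with placebo, 36 and 37 with E2 and 46 and 42 with EE, and did not fall with either estrogen.

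Other panel probes were searched for like sequences. A sequence was found for 244 of the 577 miRNA names on mouse probes. Among these and outside the families, 2 mouse probes had a mature RefSeq sequence with UGUGUGUG or ACACACAC, those for miR-1187 and miR-574-5p. They are shown because their repeats resemble those of the members.
miR-1187: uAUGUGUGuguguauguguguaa
miR-574-5p: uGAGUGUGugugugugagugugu
miR-1187 lies at chr5:82798964-82798986 on the minus strand and miR-574-5p at chr5:64970328-64970350 on the plus strand. miR-1187 read 29 and 23 normalized counts with placebo, 26 and 20 with E2 and 30 and 26 with EE, and miR-574-5p read 22 and 23, 24 and 29, and 32 and 19. Both stayed under the floor in every sample, and their groups overlapped between EE and placebo. Their means over all samples, 25.7 and 24.8, were close to the negative control mean of 22.5, so a fall could hardly have shown. Both carry the UGUGUGUG form, whereas miR-467f carries the other, so they say nothing on probes with ACACACAC.

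Several lists of cell type marker miRNAs also differed between the groups, in differing directions. The 3 lymphoid miRNAs summed to 41000 to 50761 normalized counts with placebo, 26756 to 28589 with E2 and 17116 to 18297 with EE, and all 3 were called lower with both estrogens. Of the 95 tested miRNAs, 6.32% were called lower with E2 and 15.8% with EE. The share called higher is not given here. The 3 erythroid miRNAs summed to 596 to 1393 with placebo, 4376 to 5230 with E2 and 7187 to 7933 with EE, and all 3 were called higher with both. Of 4 myeloid miRNAs, 1 was higher with each estrogen and 1 lower with EE, and their sums were 2205 to 2743, 4371 to 4738 and 2993 to 3017. Stromal miRNAs summed to 176 to 177 with placebo, 104 to 121 with E2 and 230 to 249 with EE, and endothelial ones to 84, 100 to 115 and 166 to 193. Of the 3 stromal miRNAs, 1 was called lower with E2 and 1 higher with EE. Of the 2 endothelial ones, 1 was called higher with EE. The part of these shifts in the values of the Sfmbt2 families was not tested. None of the 13 listed miRNAs of embryonic stem cells and early placenta, the tissues for which the Sfmbt2 cluster is best known, had a mean above the floor, and their sums of 106 to 139, 122 to 130 and 110 to 172 overlapped between the groups. Markers of muscle (3), liver (1) and pancreas (3) were all under the floor, as were 5 of 6 epithelial ones. All 3 lymphoid, all 4 myeloid and all 3 erythroid miRNAs were above the floor, as were 2 of 3 stromal and 1 of 2 endothelial ones.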

How the data were processed

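Total RNA was profiled by the assay's manufacturer, per the labels. Each deposited value is a whole-number score of a probe, which behaves like a count after normalization. How the authors normalized, background-corrected and rounded is not given in the sources. From the values, the geometric mean of the 100 highest miRNAs differed by 3.00% across samples and the summed positive controls by 30.6%, so scaling to abundant miRNAs is likely. Raw depth is unknown, and no count model or counting interval was used. Summed values ranged from 167152 to 205209 over 626 probes, and replicates differed by 0.16 to 0.22 log2 units in the median of the 95 tested miRNAs.

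limma 3.58.1 (R 4.3.3; lmFit, eBayes with a mean trend) was fitted to log2(value + 1) of all 6 samples in 3 groups. The pseudocount understates changes of low probes. Mouse miRNAs with a mean above the floor were tested, two-sided, with Benjamini-Hochberg adjustment over 95 miRNAs and a threshold of 0.05. A second fit held all 566 mouse probes, so that every member was fitted. Medians over members, and counts for groups that do not overlap, come from the values and this fit, with no test. With 2 samples a group, exact permutation could reach no p under 0.333, so none was run. The fit was also run on simulated data with the same independent noise at every level, so this check does not cover values near background. The naming rule took every member above the floor in some sample with its values, gave the others by range and counts, and took non-members from marker and sequence-alike lists. Members that the text picks out beyond it, such as miR-467e or miR-669o, were chosen after their values were seen. The members, lists and tests were chosen with earlier results of these data known. RefSeq tables (GRCm38.p6) gave names, gene neighbourhood and sequences.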

Additional observations from a re-analysis of the deposited data

Results flagged for a closer look

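The combined probe miR-466a-3p+miR-466b-3-3p is listed because its EE and E2 values differed in the direct test, by -0.88 on the log2 scale (limma adjusted p 0.0320), with 42 and 40 normalized counts with EE against 80 and 73 with E2. miR-467c, from a gene inside Sfmbt2, is listed because its E2 samples (20 and 22 normalized counts) lay above and its EE samples (12 and 13) below both placebo samples (17 and 18). The difference of EE from E2 was -0.70 on the log2 scale, with a limma adjusted p of 0.669 in the fit over all 566 mouse probes, so it did not pass, and all its values lay within the range of the negative controls. With 2 samples a group, single outlying samples were not tested for.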

How the results depend on the processing

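Of 21 alternatives, the EE fall of the combined miR-466 probe passed in 21 (log2 difference -2.18 to -1.07, adjusted p up to 0.0174), that of miR-669a in all 20 that tested it (-2.13 to -0.97, adjusted p up to 0.0395) and that of miR-467f in 18 (-1.43 to -0.69). No alternative turned the direction of these probes in any comparison, and none made a call of E2 against placebo. The count of members called lower with EE was 2 to 4. The count of 4 came from a floor that any group mean could meet, which added miR-467b. This probe met it only through its placebo mean of 59.5, against 47.5 with E2 and 29.5 with EE, so its call is partly built in. The single call of EE against E2 became 0 calls with rescaling by the median tested miRNA, housekeeping mRNAs or ligation controls, with quantile normalization, with no filter, with a floor of mean + 3 SD, and when any E2 or EE sample was left out (0 to 1 over all 6). The floor of 3 SD and the missing filter change only which miRNAs are tested, while for the others the cause was not tested. The number of members above the floor was 3 throughout, except 2 at 3 SD.

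The median of all members moved with scaling. For EE against placebo it was -0.10 as reported, -0.30 with quantile normalization, -0.28 with ligation controls, -0.23 with positive controls, -0.18 with negative controls and -0.015 with housekeeping mRNAs. For EE against E2 it was 0.29 with housekeeping mRNAs, -0.46 with ligation controls and -0.31 with negative controls. For E2 against placebo it was 0.15 with ligation controls and 0.076 with negative controls, opposite in sign to the reported value. The summed level with E2 was 0.703 of placebo with housekeeping mRNAs, 1.001 with ligation controls, 0.734 with positive controls and 0.963 with negative controls. After background subtraction, with values under 1 set to 1, it was 0.716. With EE it was 0.624 with ligation controls, 0.648 with positive controls and 0.383 after the same subtraction. The cause was not tested. Signal near background limits 29 of the 33 members. No paired analysis was possible because the sample titles of the groups share no numbers.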
